A study of Rattus norvegicus with 20 samples.

Results

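Prlr encodes the prolactin receptor and is 1 of the 32883 genes measured in the choroid plexus of female Zucker rats. It was followed through the row of its Ensembl gene, ENSRNOG00000057557, in all 20 rats. The gene was chosen by its measured abundance, which was lower in obese rats given testosterone than in the lean rats injected beside them. The values of that comparison are therefore a description, and no test is given for it. Abundance was listed as TPM, the share of a transcript in its library per unit length, a scale on which the values of 1 rat add up to the same total and gene length is divided out.

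The choroid plexus, taken from the lateral and 4th ventricles, is a fronded tissue whose epithelium secretes cerebrospinal fluid. Each library held the RNA of 1 rat, and all rats were female and 16 weeks old. The first cohort was not injected. It held 6 lean rats, heterozygous for the fa allele of the leptin receptor gene (+/fa), and 6 obese rats, homozygous for it (fa/fa), which lack a working leptin receptor. The second cohort was injected under the skin in the weeks before the tissue was taken. It held 4 lean rats given the sesame oil vehicle, termed lean control, and 4 obese rats given testosterone propionate in sesame oil, termed obese + TT. Rats 1 to 6 were lean, 7 to 12 obese, 13 to 16 lean control and 17 to 20 obese + TT. No obese rat received the vehicle and no lean rat received testosterone, so obesity and testosterone cannot be told apart in the second cohort. Injection and cohort cannot be told apart either, and the phase of the estrous cycle was not controlled.

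The prolactin receptor is a class I cytokine receptor. Prolactin binding brings the kinase JAK2 to phosphorylate STAT5, which then acts on genes in the nucleus, and adaptors link the receptor to the MAP kinase and AKT routes. Suppressors of cytokine signalling and phosphatases end the signal. The choroid plexus epithelium is a classical site of this receptor, where it binds circulating prolactin and has been linked to passage of the hormone into cerebrospinal fluid. The rat gene is transcribed from alternative first exons and gives long and short receptor forms, which a single gene value does not separate.

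RefSeq gives Prlr 2 start windows in the rat assembly GRCr8, both on the + strand of chromosome 2, with starts 47894 bases apart. The deposited values were made on another assembly, Rnor_6.0, so these positions are not positions in the files. Each window spans 250 bases before and 50 after a transcription start. The bases before each start are shown, since a steroid hormone was injected and motifs of steroid receptors and of STAT5 can be looked up in them. Capitals mark the STAT5 motif TTCNNNGAA and the core AGAACA, which androgen and glucocorticoid receptors share.
Prlr window 1, chr2:60861515-60861764: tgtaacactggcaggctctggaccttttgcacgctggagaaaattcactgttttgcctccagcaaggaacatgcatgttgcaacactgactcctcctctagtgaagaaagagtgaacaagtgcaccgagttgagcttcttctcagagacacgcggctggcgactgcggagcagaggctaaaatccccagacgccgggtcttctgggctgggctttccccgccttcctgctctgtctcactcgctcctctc
Prlr window 2, chr2:60909409-60909658: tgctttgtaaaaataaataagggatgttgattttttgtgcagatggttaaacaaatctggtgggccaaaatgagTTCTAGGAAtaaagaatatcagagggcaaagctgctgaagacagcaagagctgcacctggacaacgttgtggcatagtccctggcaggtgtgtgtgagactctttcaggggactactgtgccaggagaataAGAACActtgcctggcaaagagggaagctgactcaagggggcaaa

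Both strands of the whole windows were searched. The first window held neither motif, and 54.3% of its 300 bases were G or C. The second window was poorer in G and C, at 45.3%, where the median of 33469 rat windows was 51.7%. It held TTCTAGGAA at bases 75 to 83 and AGAACA at bases 206 to 211, counted from the first base of the window, and the motifs did not overlap. The STAT5 motif occurred in 8.87% of all windows and AGAACA in 20.7%. Neither window held the full androgen response element, AGAACA and TGTTCT set 3 bases apart, found in 0.0149% of all windows. The same was true of the full estrogen response element, GGTCA and TGACC set 3 bases apart, found in 0.0269%. The estrogen receptor core GGTCA, found in 40.5%, and the steroidogenic factor 1 site TCAAGGTCA, found in 0.433%, were not in these windows either. A match of letters is a description of the sequence and not a binding site.

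The libraries were those of a choroid plexus, with a difference in make-up between the cohorts. All 12 markers of choroid plexus epithelium were measured, and none was at 0 in any rat. Ttr (transthyretin) alone took 31.2 to 39.0% of the TPM of a lean rat, 32.3 to 39.3% of an obese rat, 27.2 to 30.5% of a lean control rat and 25.8 to 29.5% of an obese + TT rat. The 9 measured markers of stromal fibroblasts, endothelium and mural cells were lower in the injected cohort for 8 of 9 genes. Their median ratio was 0.10 for lean control to lean and 0.093 for obese + TT to obese, and Pdgfra was the exception. Map2, the neuron marker with a name at hand, was 2.71 and 2.68 times as high in the injected groups, and Gja1, the astrocyte marker, 0.298 and 0.515 times. The 4 measured erythrocyte markers summed to 3105 to 5471 TPM in lean, 4052 to 7019 in obese, 2168 to 5768 in lean control and 4799 to 8388 in obese + TT rats. The part of these markers in the results was not tested, and macrophage, oligodendrocyte and pituitary markers were not analysed here. Genes above 0 TPM numbered 14968 to 16860 per rat, with the lowest count in rat 14. TPM does not tell how many reads stand behind a value. In bulk tissue, fewer cells of a type and less RNA per cell cannot be told apart.

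Prlr was an abundant transcript of the choroid plexus in every rat. By TPM it ranked between 334 and 900 among the 32883 genes of a rat, and between 94.5 and 98.0% of the genes above 0 were at or below it. In the 6 lean rats Prlr ranged from 127 to 196 TPM, with a median of 141 and a mean of 155 ± 31.0 TPM (SD, n = 6). In the 6 obese rats it ranged from 101 to 191 TPM, with a median of 140 and a mean of 144 ± 33.7 TPM (SD, n = 6). The lean and obese ranges overlapped over most of their width. Without overlap between these groups were 0.297% of genes with obese rats higher and 0.244% with obese rats lower.

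The 4 lean control rats had 245, 273, 289 and 247 TPM of Prlr, a mean of 263 ± 21.4 TPM (SD, n = 4). The 4 obese + TT rats had 167, 148, 185 and 184 TPM, a mean of 171 ± 17.4 TPM (SD, n = 4). Every obese + TT rat lay below every lean control rat, which is the pattern the gene was chosen for. By mean TPM the order was lean control, obese + TT, lean and obese. The lean control rats stood apart from all other rats, whereas the ranges of obese + TT, lean and obese overlapped one another.

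The spread of Prlr among the rats of a group was described by its extremes. The highest rat had 1.55 times the TPM of the lowest among the lean rats and 1.88 times among the obese rats, against 1.18 among the lean control and 1.25 among the obese + TT rats. The coefficient of variation was 20.1% in lean, 23.3% in obese, 8.1% in lean control and 10.2% in obese + TT rats. Whether the spread differed between groups was not tested.

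**Figure D1:**
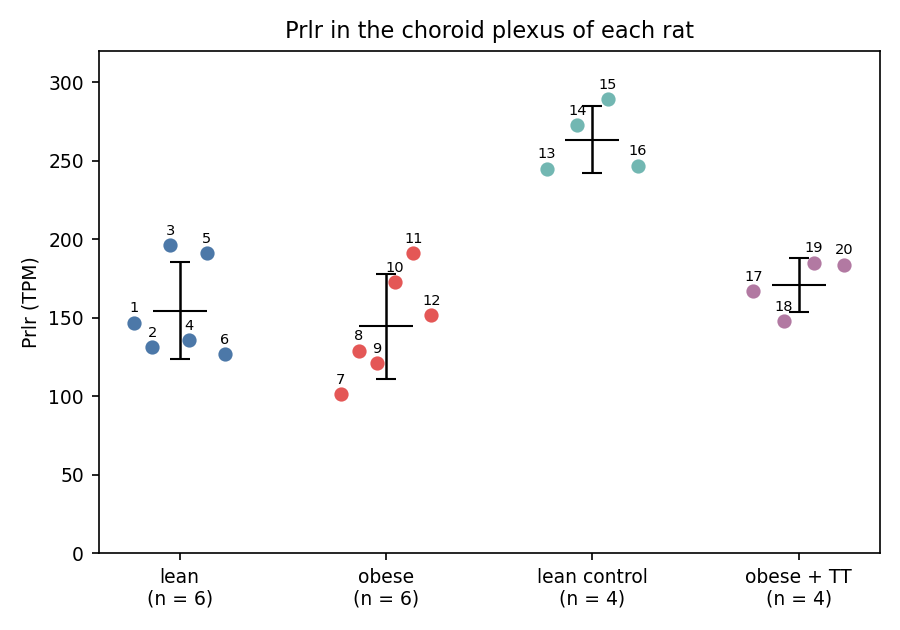
Prlr abundance in TPM (vertical axis, from 0) in each of the 20 rats, by group (horizontal axis), with each point labelled by the number of the rat and the bars giving the mean ± SD. The 4 lean control rats sit between 245 and 289 TPM, above all other rats, and the obese + TT rats sit between 148 and 185 TPM, inside the range of the untreated rats.

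Obese and lean untreated rats address whether obesity of the fa/fa genotype, without injection, went with a different Prlr level. This comparison had no part in choosing the gene. Obesity and loss of the leptin receptor cannot be told apart in it. Prlr did not pass the test. Levels were compared as log2(TPM + 0.1) for genes averaging 0.1 TPM or more. The log2 fold change of Prlr, obese against lean, was -0.11 (SE 0.16, 95% confidence interval -0.44 to 0.22, adjusted p = 0.875 from limma over 15176 genes). The exact two-sided permutation test of the same difference over all 924 splits of the rats gave p = 0.556. The interval leaves room for a drop or a smaller rise, so the data do not show equal levels. Among the 15176 genes, 21.0% had a lower log2 fold change than Prlr.

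In this comparison 0 genes, 0% of those tested, passed an adjusted p of 0.05 in limma, and 1466 genes (9.66%) had an unadjusted p under 0.05. Other settings of limma called 1 gene with median-of-ratios scaling, which sets the typical gene level between rats, 1 with FPKM, the same abundances before they are brought to a common total, 3 in a fit of all 20 rats, and 0 or 1 when each rat was left out.

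The Prlr difference between obese + TT and lean control rats, which chose the gene, was -0.63 in mean log2(TPM + 0.1), a ratio of mean TPM of 0.649. Of 15262 genes tested in these rats, 548 (3.6%) had a lower difference. Among the 947 genes that averaged 100 TPM or more, a cut that was not planned, 2 genes were lower than Prlr. Since this difference chose the gene, its rank is a description and no support. The 2 lower genes are given for context. They were LOC100911417, at 176 ± 12.9 TPM for lean control and 119 ± 81.4 TPM for obese + TT, and Glycam1, a mucin-like protein of endothelium and milk, at 1157 ± 712 and 600.1 ± 165 TPM (mean ± SD, 4 rats each). The ranges of both genes overlapped between the groups, and both were named after their values were seen. Prlr was separated between the groups by a gap from 185 to 245 TPM. No overlap, with the obese + TT rats lower, was found in 1.66% of all genes tested.

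The difference between obese + TT and lean control rats was nearly the same on every scale tried. It was -0.66 when TPM was rescaled without Ttr, -0.63 with median-of-ratios scaling and -0.64 in FPKM. Relative to the median of the 12 epithelium markers it was -0.62. It lay between -0.67 and -0.56 when each rat was left out in turn, and was -0.61 without rat 14.

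Some markers of other cells also had unlike levels in these groups, but none passed after adjustment. The 3 measured mural cell markers, Rgs5, Myh11 and Tagln, summed to 13.7 to 21.7 TPM in lean control and to 9.70 to 11.7 TPM in obese + TT rats, without overlap. Of all single genes, 1.66% were lower without overlap. Myh11, a smooth muscle myosin, had a log2 difference of -0.74 (adjusted p = 0.375 from limma), Tagln, an actin-binding protein, of -0.79 (adjusted p = 0.51) and Rgs5 of -0.13 (adjusted p = 0.97). Gja1 had 0.76 (adjusted p = 0.519) and Map2 -0.13 (adjusted p = 0.668). The 4 measured erythrocyte markers had larger or similar differences and were higher in obese + TT rats. Slc4a1, below 1 TPM in these rats, had 1.37 (adjusted p = 0.429 from limma) and Hba-a2 1.13 (adjusted p = 0.473). Hba-a1 had 1.12 (adjusted p = 0.518) and Hbb 0.67 (adjusted p = 0.672). Their part in the Prlr difference was not tested.

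A comparison of each injected group with the untreated group of the same genotype sets the level of Prlr in the cohorts side by side. Lean control rats had 1.70 times the mean TPM of lean rats, a log2 difference of 0.79, and every lean control rat lay above every lean rat. On TPM the injected cohort stood higher for most genes, however. The median log2 difference of all genes was 0.24 for lean control minus lean, and 34% of 15327 genes were higher without overlap. Relative to that median shift Prlr was still among the higher genes, since 79.1% of genes had a smaller difference. The 924 genes averaging 100 TPM or more in these rats had a median of -0.08, and 855 of them had a smaller difference than Prlr.

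Obese + TT rats had 1.18 times the mean Prlr TPM of the untreated obese rats, a log2 difference of 0.27, with overlapping ranges. The median log2 difference of all genes between these groups was 0.25, and 51.5% of genes had a smaller difference than Prlr. Prlr was thus close to the median of all genes. Among the 924 genes that averaged 100 TPM or more in these rats, however, the median was -0.08, and 682 had a smaller difference than Prlr. The lower Prlr of the obese + TT rats held against the lean control rats and not, on TPM, against obese rats without testosterone.

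The size and the sign of these differences between cohorts depended on the scale. For lean control minus lean, the log2 difference went from 0.79 in TPM to 0.68 without Ttr, 0.53 in FPKM, 0.48 with median-of-ratios scaling and 0.20 relative to the epithelium markers. For obese + TT minus obese it was 0.27 in TPM and 0.11 without Ttr. It was -0.01 in FPKM, -0.03 with median-of-ratios scaling and -0.35 relative to the epithelium markers, so that its direction turned. No direction for Prlr between obese + TT and obese rats can be read from these values.

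**Figure D2:**
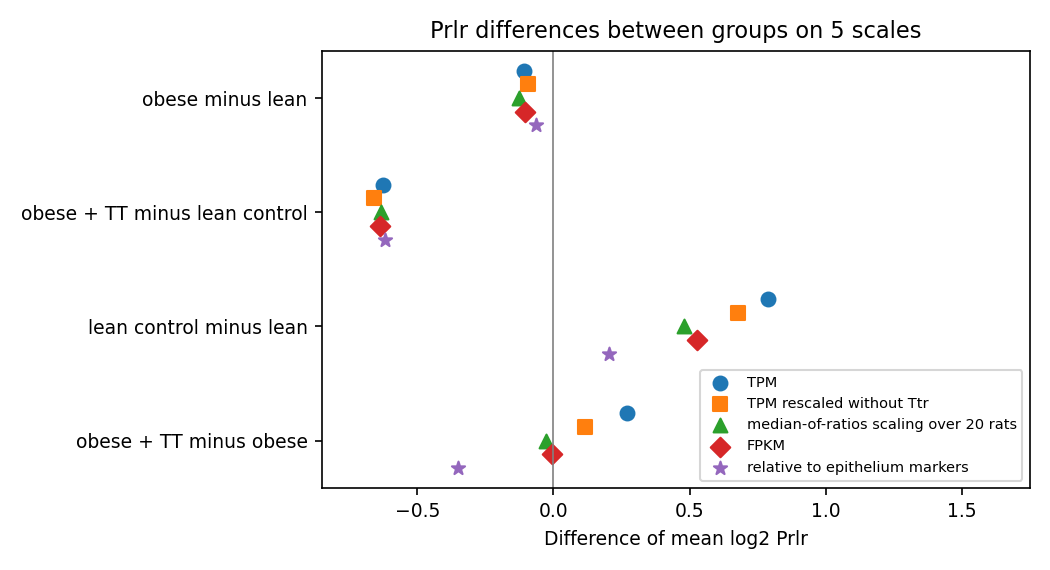
Difference of mean log2 Prlr between groups (horizontal axis, log2 units) for 4 pairs of groups (vertical axis), each on 5 scales shown by symbols. The 5 symbols for obese + TT minus lean control lie close together between -0.66 and -0.62, whereas those for obese + TT minus obese lie on both sides of 0, from -0.35 to 0.27.

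Prlr was next set against the markers of the epithelium. The summed TPM of the 11 epithelium markers other than Ttr was 8045 to 9914 in lean, 8101 to 9414 in obese, 12395 to 13877 in lean control and 12906 to 14342 in obese + TT rats. On TPM every injected rat thus had more of these transcripts than any untreated rat. By gene, 10 of the 12 markers were higher in lean control than in lean rats, with a median ratio of 1.45, and 11 of 12 were higher in obese + TT than in obese rats, with a median ratio of 1.54.

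Relative to the median of the 12 markers, log2 Prlr was 0.05 ± 0.21 in lean, -0.02 ± 0.28 in obese, 0.25 ± 0.17 in lean control and -0.37 ± 0.12 in obese + TT rats (SD, n = 6, 6, 4 and 4). The obese + TT rats ranged from -0.54 to -0.31 on this scale, and the lean control rats from 0.04 to 0.43. The lowest untreated obese rat was at -0.38 and overlapped with the obese + TT rats. Obese minus lean was -0.06 (exact two-sided permutation test, p = 0.656).

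Within the 12 untreated rats, Prlr was higher where the epithelium markers were higher. Pearson's r between log2 Prlr and the median of the markers was 0.748 (permutation test, p = 0.00574, adjusted p = 0.023 over 4 library traits), and Spearman's rho was 0.818 (permutation p = 0.0019, adjusted p = 0.0076). Without rats 3 and 7, the farthest from the median of the markers, r was 0.569. It was 0.766 in the 6 lean and 0.72 in the 6 obese rats. All values of a rat come from 1 library and share its scale, and the 4 traits were chosen after values were seen.

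The other traits did not pass after adjustment over the 4 traits. The factor from TPM to FPKM of a library had r = -0.554 (permutation p = 0.0622, adjusted p = 0.124) and rho = -0.594 (permutation p = 0.0451, adjusted p = 0.0903) with Prlr, with r = -0.417 without rats 6 and 3. The share of Ttr had r = -0.335 (permutation p = 0.292, adjusted p = 0.292) and rho = -0.545 (permutation p = 0.0705, adjusted p = 0.094), and r was -0.824 without rats 10 and 6. The number of genes above 0 had r = -0.448 (permutation p = 0.145, adjusted p = 0.193) and rho = -0.469 (permutation p = 0.13), with r = -0.469 without rats 4 and 3.

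**Figure D3:**
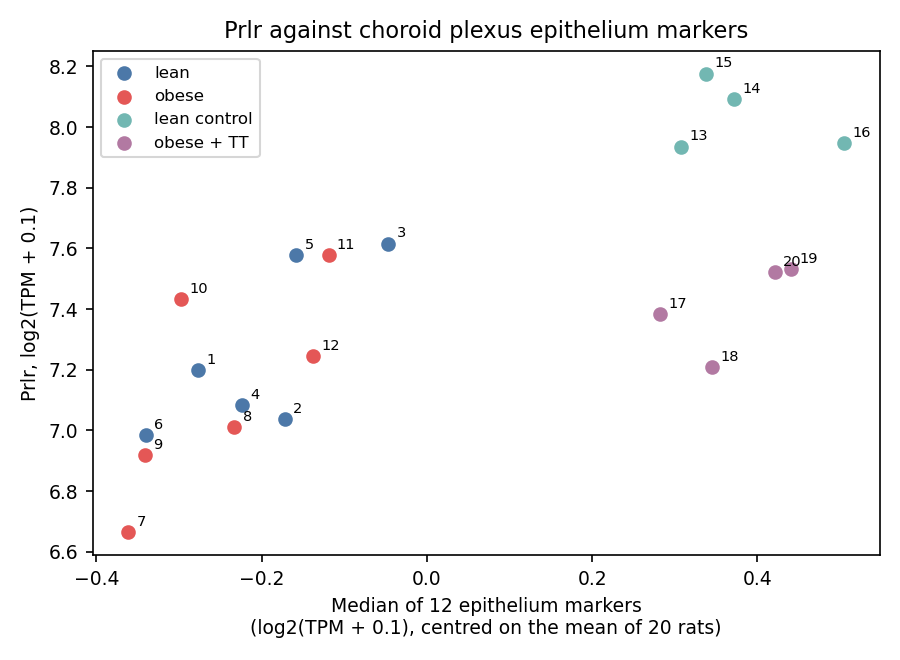
Prlr as log2(TPM + 0.1) (vertical axis) against the median of 12 choroid plexus epithelium markers (horizontal axis, log2(TPM + 0.1) centred on the mean of 20 rats), with each point labelled by rat number and coloured by group. The 12 untreated rats rise together from lower left, with r = 0.748, and at high marker levels the 4 lean control rats lie above the 4 obese + TT rats.

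The genes whose pattern was most like that of Prlr were found by Pearson's r of log2(TPM + 0.1) over the 20 rats, among 12093 other genes that averaged 1 TPM or more. Names were at hand for 2567 of them, and 8 unnamed genes ranked above the eighth named gene. These correlations are descriptions, since rats of a group share its level and all values of a rat share its library. The median r of the named genes was 0.212, and 22 named genes were above 0.8.

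Gdf11, a secreted ligand of the TGF-beta family, came first with r = 0.898, followed by Strip2, a subunit of the striatin phosphatase and kinase complex, with 0.891. Next were Ocln (occludin, a tight junction protein) with 0.862, Cacna2d2 (a calcium channel subunit) with 0.853 and Oxct1 (a mitochondrial enzyme of ketone body use) with 0.846. Agpat3, an acyltransferase of phospholipid synthesis, and Pcmtd2 both had 0.841, and Slc15a2, the peptide transporter PEPT2, had 0.835. Among their 8 promoter windows, 1 held the STAT5 motif, 2 held AGAACA and 2 held GGTCA.

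Gdf11 had the order of groups that Prlr had. It was at 28.8 ± 3.21 TPM in lean control, 21.0 ± 1.15 in obese + TT, 14.7 ± 1.87 in lean and 12.5 ± 2.48 TPM among obese rats (SD, n = 4, 4, 6 and 6). The lean control rats had 24.0, 30.2, 29.7 and 31.1 TPM of Gdf11 and the obese + TT rats 19.4, 22.1, 21.0 and 21.4 TPM. The obese + TT rats were below the lean control rats without overlap, by -0.45 on the log2 scale, and on TPM above all untreated rats.

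Strip2 was at 85.1 ± 5.38 TPM for lean control rats and 61.5 ± 6.54 TPM for obese + TT rats (mean ± SD, 4 rats each), also without overlap, a log2 difference of -0.47. In the untreated rats it ranged from 33.7 to 57.8 TPM in lean and from 40.5 to 86.0 TPM in obese rats. The highest of these was obese rat 11, which was also the obese rat with the most Prlr. Cacna2d2 (-0.81) and Agpat3 (-0.18) were lower in obese + TT than in lean control rats without overlap, whereas Slc15a2 (-0.52), Ocln (-0.18), Oxct1 (-0.11) and Pcmtd2 (-0.13) overlapped. Of the 8 genes most like Prlr, 4 were thus lower without overlap, as were 1.66% of all genes. But the 8 were picked for their likeness to Prlr over the same rats, which partly fixes this count. So may the source of the names, which also lists genes the study called changed.

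When the mean of each group was subtracted, so that only differences among rats of 1 group remained, Dcaf7, an adaptor of kinases and ubiquitin ligases, had the highest r, at 0.888. Gdf11 (0.843), Dip2c (0.839), Strip2 (0.823), Cldn2 (0.802) and Usp33, a ubiquitin protease (0.795), followed, where the median of all named genes was 0.173. All groups were pooled for this r, and the 12 untreated rats varied most in Prlr, so single groups could differ. The lean control rats, at 245, 273, 289 and 247 TPM of Prlr, had 66.0, 56.3, 55.6 and 59.0 TPM of Dip2c. Dip2c thus went the other way there. The obese + TT rat lowest in Prlr, rat 18, was also lowest in Dip2c of its group, at 56.4 TPM. Over the pooled rats, Dcaf7 followed Prlr among rats and not between the injected groups. It was at 74.7 ± 1.93 TPM for lean control rats and 75.9 ± 1.77 TPM for obese + TT rats (mean ± SD, 4 rats each), a log2 difference of 0.02. Cldn2, the pore-forming claudin of this epithelium, was likewise close between these groups, at 733 ± 31.2 and 693 ± 36.3 TPM (mean ± SD, 4 rats each).

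The epithelium markers had a median r of 0.446 with Prlr within groups, and 10 of 12 were above 0, as were 1918 of the 2567 named genes, so the count above 0 was near that of all named genes. After Cldn2 came the potassium channel subunit Kcne2 (0.693) and the cation channel Trpv4 (0.643). The markers below 0 were the transcription factor Otx2 (-0.176) and Ttr (-0.345).

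Genes that opposed Prlr over the 20 rats were led by AABR07006627.1 (r = -0.803), the small GTPase Arf5 (-0.778), LOC100359922 (-0.778) and Tspo, the translocator protein of the outer mitochondrial membrane (-0.772). Tspo was at 144 ± 10.6 TPM for lean rats and 142 ± 13.6 TPM for obese ones (mean ± SD, 6 rats each), and at 98.5 ± 5.12 TPM for lean control rats and 105 ± 7.70 TPM for obese + TT rats (mean ± SD, 4 rats each). With the group means subtracted, Tspo still had r = -0.593 with Prlr, where the lowest of the named genes was at -0.614. AABR07006627.1 had -0.589, Arf5 -0.354 and LOC100359922 -0.263 within groups. The 73 cytosolic ribosomal protein genes had a median r of -0.571 over all rats and of 0.017 within groups.

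**Figure D4:**
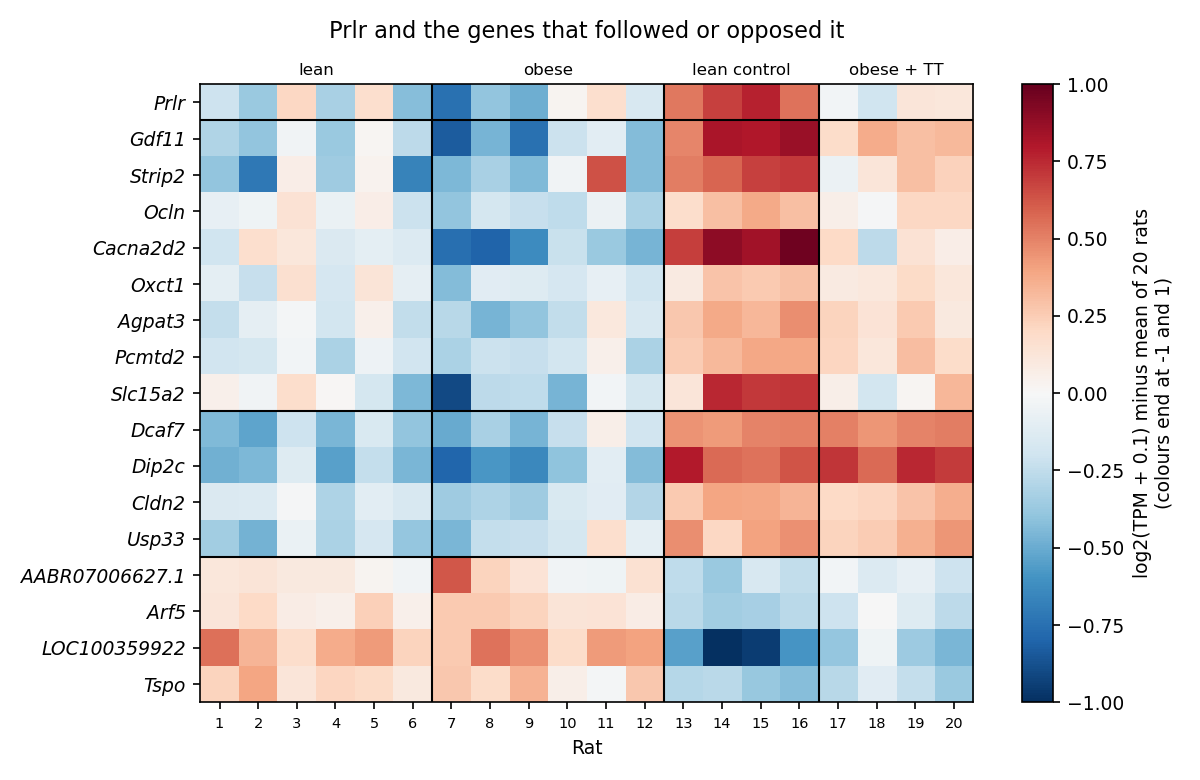
Heat map of log2(TPM + 0.1) minus the mean of 20 rats (colour scale, ending at -1 and 1) for Prlr and 16 genes (rows) in rats 1 to 20 (columns, grouped), with lines separating Prlr, the 8 genes most like it, further genes most like it within groups and the 4 that opposed it most. The lean control columns are the reddest for Prlr, Gdf11 and Strip2, while Dcaf7 and Dip2c are about as red in obese + TT as in lean control rats.

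Genes of the prolactin pathway and of steroid response were taken from 10 lists by role. Names were at hand for 17 of their 123 genes. These were 1 of 11 class I cytokine receptors, 7 of 21 adaptors and kinases, 1 of 15 inhibitors, 3 of 16 STAT5 targets, 3 of 12 androgen-responsive and 2 of 12 estrogen-responsive genes. Prolactin family ligands, JAK and STAT genes, steroid receptors and enzymes, and the transcription factors of the Prlr promoters were not analysed here. The names came from tables of the study that also list genes it called changed, so these 17 are not a neutral sample.

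No list gene passed in either comparison. In obese against lean rats, 0 of 17 had an adjusted p under 0.05 (limma, smallest adjusted p = 0.295), 1 was higher and 4 were lower at an unadjusted p under 0.05, and the median log2 fold change was -0.08. Of all genes, 5.91% were higher and 3.75% lower at that unadjusted level, and their median log2 fold change was 0.02. In obese + TT against lean control rats, 0 of 17 passed (smallest adjusted p = 0.593), 1 was higher and 1 was lower at an unadjusted p under 0.05, and the median was 0.02. There, 0 of 15262 genes (0%) passed, 1134 (7.43%) had an unadjusted p under 0.05, with 4.25% higher and 3.18% lower, and the median of all genes was 0.01. A fit of all 20 rats called 6 genes in this comparison, leaving out rat 13 called 25, and leaving out any other rat called 0 to 4. In simulated data, log2 changes of 0.5 were set in 200 genes at once, with noise drawn separately for each gene and rat. Limma recovered 39% of them at these group sizes and 56% at those of obese against lean rats. Real values of a rat share its library, so recovery in these data may be lower. The study ran DESeq2 on read counts and called genes in both comparisons. A gene that did not pass is thus not shown to be unchanged.

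Lepr, the leptin receptor that carries the fa allele in these rats, was the class I cytokine receptor of the lists with a name at hand. It was at 53.2 ± 31.5 TPM for lean rats and 33.4 ± 4.72 TPM for obese ones (mean ± SD, 6 rats each), with a log2 fold change of -0.52 (SE 0.26, adjusted p = 0.558 from limma). Without lean rat 1, which had 112 TPM, it was -0.27. The lean control rats had 58.8, 359, 43.1 and 53.0 TPM of Lepr and the obese + TT rats 57.4, 53.6, 85.7 and 62.8 TPM. Rat 14, with 359 TPM, set the mean of its group, and the log2 difference of -0.39 had an adjusted p of 0.915. Without rat 14 the difference turned to 0.32, so that no direction can be read for Lepr in the injected cohort. For Prlr the same rat, at 273 TPM, lay between the others of its group.

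None of the 7 adaptors and kinases that carry the signal from the receptor passed in either comparison. Mapk3, a MAP kinase, had a log2 fold change of 0.01 in obese against lean rats (adjusted p = 0.974 from limma). Akt2, a kinase of the insulin route, had 45.0 ± 4.24 TPM for lean rats and 36.6 ± 5.33 TPM for obese ones (mean ± SD, 6 rats each), a log2 fold change of -0.30 (SE 0.09, adjusted p = 0.31). In obese + TT against lean control rats, Mapk3 had a log2 fold change of 0.21 (adjusted p = 0.708). Ppia, the cyclophilin that binds the receptor's tail, had the highest level of the list, between 1742 and 2448 TPM over the 20 rats.

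The inhibitor Pias3, which blocks DNA binding by activated STAT3, went the other way from Prlr in the injected cohort. The lean control rats had 12.1, 12.2, 10.5 and 11.6 TPM and the obese + TT rats 13.5, 14.1, 14.3 and 12.7 TPM. The obese + TT rats were higher without overlap, as were 2.37% of all genes. The log2 fold change was 0.23 (SE 0.08), and the adjusted p of 0.593 from limma did not pass.

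Of the STAT5 targets, the cell cycle inhibitor Cdkn1a had a log2 fold change of -0.36 in obese against lean rats (SE 0.12, adjusted p = 0.333 from limma), from 204 ± 30.2 to 159 ± 30.6 TPM (mean ± SD, 6 rats each). Igf1, the growth factor, was low, between 0.09 and 3.45 TPM, and its log2 difference of -0.81 in the injected cohort had an adjusted p of 0.846. That difference was -1.58 without rat 13, -0.42 without rat 14 and -0.23 without rat 15. Bcl2l1, the survival factor BCL-XL, had a log2 fold change of 0.02 in obese + TT against lean control rats.

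Acsl3, an androgen-responsive acyl-CoA synthetase, had the same sign in both comparisons. Its log2 fold change was -0.35 in obese against lean rats (SE 0.11, adjusted p = 0.346 from limma) and -0.33 in obese + TT against lean control rats (SE 0.12, adjusted p = 0.605). Sgk1, a kinase that steroids induce, had -0.48 in obese against lean rats (SE 0.14, adjusted p = 0.295), from 180 ± 48.1 to 127 ± 14.2 TPM (mean ± SD, 6 rats each), and -0.07 in the injected cohort. Pmepa1, another androgen-responsive gene, had 0.09 in the injected cohort, with overlapping groups.

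Of the estrogen-responsive genes, Xbp1, a transcription factor of the secretory pathway, had 24.8 ± 3.13 TPM for lean rats and 32.4 ± 5.68 TPM for obese ones (mean ± SD, 6 rats each). Its log2 fold change was 0.38 (SE 0.11, adjusted p = 0.302 from limma), against -0.22 in the injected cohort. Between the comparisons, the difference for Xbp1 was -0.60 (interaction term in limma, unadjusted p = 0.0113, adjusted p = 0.47). In that fit 0 of 15406 genes passed, 1288 (8.36%) had an unadjusted p under 0.05, and Akt2 and Pias3 were the other list genes among them. Ctsd, the lysosomal protease cathepsin D, ranged from 1003 to 1364 TPM over the 20 rats.

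**Figure D5:**
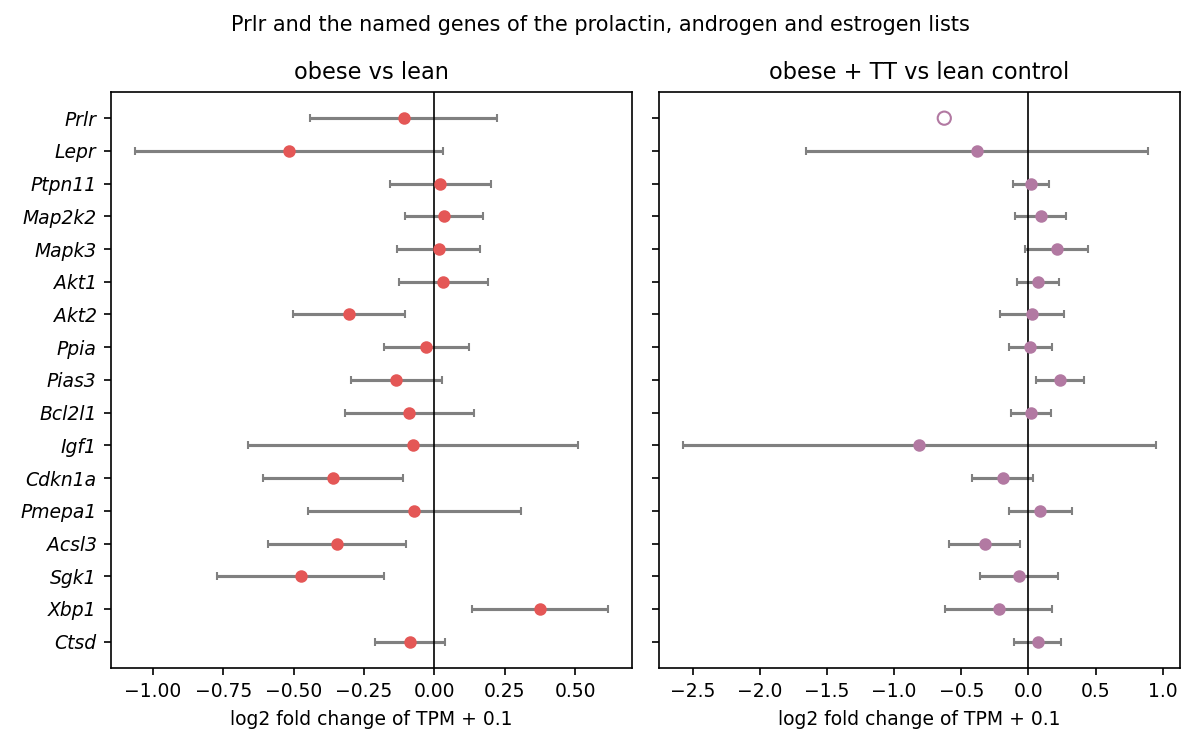
Log2 fold change of TPM + 0.1 (horizontal axes, with different ranges) for Prlr and 16 genes of the prolactin, androgen and estrogen lists (vertical axis), with obese against lean at left and obese + TT against lean control at right, and bars giving the 95% confidence interval from limma. None of the genes drawn passed after adjustment, and the open symbol for Prlr at right, at -0.63, has no interval because that comparison chose the gene.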

How the data were processed

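The authors sequenced paired-end libraries of choroid plexus RNA, 1 per rat, and mapped them to Rnor_6.0. The submitters' processing notes name STAR 2.7.9a, RSEM 1.3.3 and DESeq2 3.16. The authors deposited TPM and FPKM for 32883 Ensembl genes per rat, and both were read as deposited, without counts, so depth is unknown. The plan was limma on log2(TPM + 0.1), with a count test in its place had counts been given. With TPM and FPKM at hand, limma 3.58.1 (R 4.3.3) was used. It was fitted within a cohort for genes averaging 0.1 TPM or more, with a trend and Benjamini-Hochberg adjustment. In simulated data it recovered 93% of true log2 changes of 1 for obese against lean and 84% for obese + TT against lean control. For log2 changes of 0.5 these were 56% and 39%. Each simulation changed 200 genes averaging 1 TPM or more, with noise drawn separately for each gene. The shares may thus be too high for these data. The pseudocount of 0.1 understates changes of low genes. Exact two-sided permutation tests served for single values, and correlations over 12 rats by permutation tests.

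Alternatives were a pseudocount of 1, other filters, other limma options, TPM without Ttr, median-of-ratios scaling, FPKM, Prlr relative to 12 epithelium markers, and leaving out each rat. Rats are separate animals. Prlr and all lists were chosen with earlier results of these data known. Named genes were Prlr, list genes with a symbol, and the 8 genes most like Prlr, the 4 least like it and the 6 most like it within groups. Symbols for 2616 of the 32883 identifiers came from supplementary tables of the study, which favour abundant genes. These tables also list the genes that the study called changed in the same comparisons, so named genes are not a neutral sample. 1 list gene is counted with its list but not reported here. The 10 genes next to Prlr had no identifier paired with a name and were not analysed here. Among 42 pairs of libraries of 1 group, at most 0.486% of genes had identical values. Promoter windows are from RefSeq (GRCr8). Python 3.11.15, pandas 2.3.3, numpy 2.4.6, scipy 1.17.1 and matplotlib 3.10.9 were used.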

Additional observations from a re-analysis of the deposited data

Results flagged for a closer look

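Prlr had no rat that stood apart from its group. Among 45 genes in 4 groups, 180 groups of values were checked by Dixon's criterion and 16 had such a rat, where about 9 are found by chance. The genes of the pathway lists gave 7 of them. Lepr was at 359 TPM in lean control rat 14, against 43.1 to 58.8 TPM in the others of its group. In obese + TT rat 20, Map2k2 was at 75.1 TPM (others 91.5 to 93.3) and Mapk3 at 50.3 TPM (others 59.1 to 60.1). Bcl2l1 was at 63.9 TPM in lean rat 2 (others 44.4 to 51.4), and Igf1 at 0.91 TPM in obese + TT rat 17 (others 0.29 to 0.38). Cdkn1a was at 219.79 TPM in obese rat 11 (others 137 to 156), and Pmepa1 at 125 TPM in obese rat 7 (others 53.0 to 78.7).

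Genes whose pattern followed or opposed Prlr gave 5. Strip2 was at 86.0 TPM (others 40.5 to 53.9) and Pcmtd2 at 165 TPM (others 127 to 139) in obese rat 11. Oxct1 was at 53.9 TPM (others 63.5 to 68.9) and AABR07006627.1 at 187 TPM (others 118 to 141) in obese rat 7. In lean control rat 13, Slc15a2 was at 10.3 TPM (others 15.6 to 16.1). Rats 7 and 11 were also the lowest and the highest obese rat for Prlr. These genes were picked by their correlation with Prlr over the same rats, which partly fixes this.

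Epithelium markers gave 4. Otx2 was at 7.85 TPM in obese rat 10 (others 67.3 to 85.9) and at 200.1 TPM in obese + TT rat 20 (others 107 to 115). Folr1 was at 970.4 TPM in obese rat 10 (others 1067 to 1112) and at 1245 TPM in lean control rat 15 (others 1380 to 1400).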

How the results depend on the processing

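Prlr in obese against lean rats kept its direction and did not pass under any alternative run. Adjusted p ran from 0.732 to 0.989 over 21 settings of limma, and relative to the epithelium markers the permutation p was 0.656. The log2 difference ranged from -0.20 to -0.01 when each rat was left out. Obese + TT minus lean control, which has no test, stayed between -0.67 and -0.56. Lean control minus lean moved from 0.79 to 0.48 with median-of-ratios scaling, 0.53 in FPKM and 0.20 relative to the epithelium markers (without single rats, 0.74 to 0.86). Obese + TT minus obese turned from 0.27 to -0.028 with median-of-ratios scaling, -0.0071 in FPKM and -0.35 relative to the epithelium markers (without single rats, 0.17 to 0.36). The cause was not tested. No list gene was called under any alternative run. The count of list genes at an unadjusted p under 0.05 in the injected cohort, 2, was 5 without rat 13, 4 without rat 20 and 1 without rat 16, 17 or 18. Signs of list genes that had not passed turned in some settings. In obese against lean rats, Mapk3 went to -0.0040 with median-of-ratios scaling. Leaving out each rat there gave -0.277 to 0.0512 for Igf1, -0.0704 to 0.0153 for Ppia, -0.0125 to 0.0641 for Akt1, -0.0183 to 0.0612 for Ptpn11, -0.230 to 0.0160 for Pmepa1 and -0.0107 to 0.0616 for Mapk3. In obese + TT against lean control rats, TPM without Ttr gave -0.0138 for Bcl2l1, -0.0064 for Akt2, -0.0184 for Ppia and -0.0135 for Ptpn11. Leaving out each rat there gave -0.0175 to 0.0737 for Bcl2l1, -0.160 to 0.0435 for Sgk1, -0.0339 to 0.118 for Akt2, -0.702 to 0.316 for Lepr, -0.0145 to 0.0477 for Ppia and -0.0178 to 0.0582 for Ptpn11. Of the 8 genes most like Prlr, 6 to 8 were shared under other scales. No paired analysis was possible because the groups share no replicate numbers. TPM keeps no depth, so counting error is unknown, and receptor forms are summed.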
